A study of Homo sapiens with 6 samples.

Results

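The 48 genes described here encode proteins that build the mitotic spindle, attach chromosomes to it, delay anaphase until attachment is complete, compact the chromosomes and divide the cell. They were chosen by symbol, for what their products do, with earlier results of these data known. All 48 were found among the 62443 genes of the deposited table. The values are FPKM, mapped fragments scaled by transcript length and by the fragments of the library, so that levels of different genes are compared per length. Of the 48 genes, 41 averaged 1 FPKM or more across all 6 libraries and were tested as part of 7406 genes. The other 7 members (TTK, INCENP, CENPA, CENPE, ECT2, UBE2S and ESPL1) lay below this minimum.

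The libraries came from HGC-27, a human line derived from an undifferentiated gastric carcinoma, and were 3 controls (Con) and 3 samples exposed to GLUP. GLUP is a macrocyclic peptide with tandem copies of the TEAD4-binding core of VGLL4, made to hold molecules of the transcription factor TEAD4 together. The labels give Con as having had no treatment, while the study's methods describe the negative control as the peptide's stock buffer. No dose or time stands in the labels. The study does give a dose, and it states the length of the exposure differently in different places. Values are listed in the order of replicates 1 to 3. All of them come from a single cell line, and the labels number the 3 samples of a group without saying that they were separate cultures. The study's methods speak of biological replicates for the RNA, without describing them further. The p-values therefore measure only the spread between these samples.

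Mitotic genes are transcribed late in the cell cycle, and many of their mRNAs and proteins disappear after division, so that in a growing population their level follows the share of dividing cells. The spindle checkpoint proteins hold the anaphase-promoting complex (APC/C), a ubiquitin ligase, inactive through its activator CDC20 until every kinetochore is bound by microtubules. The APC/C then marks securin (PTTG1) and the mitotic cyclins for destruction, separase (ESPL1) cuts cohesin, and the sister chromatids part. In bulk samples, fewer dividing cells and less mRNA per dividing cell cannot be told apart.

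Sequencing depth is not recorded in FPKM values, and the sum of all FPKM values ranged from 909735 to 965147. Con replicate 2 stood apart from the rest: it was the library farthest from the gene mean for 27 of the 41 tested members and for 55.3% of all tested genes. Con replicate 3 lay closest to the GLUP mean among the Con libraries for 29 of the 41 members and for 67.3% of all tested genes. Of the mesenchymal markers, vimentin (VIM) averaged 325 FPKM, FN1 1.23 FPKM and CDH2 0.0117 FPKM. The keratins KRT8, KRT18 and KRT19 averaged 1.08 to 1.86 FPKM. EPCAM and CDH1, which define epithelium, averaged 0.0409 and 0.0272 FPKM. The gastric markers TFF1, TFF2 and GKN1 were listed at 0 in all libraries, and MUC5AC and CLDN18 averaged at most 0.0105 FPKM. The blood marker PTPRC averaged 0.0106 FPKM. Of the fibroblast markers, DCN averaged 24.6 FPKM and COL1A1 4.11 FPKM, and PECAM1 was not analysed here. The labelled gastric origin is thus not visible in these markers.

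The comparison of GLUP with Con asked which of these genes differed after exposure to the peptide. The largest differences ran in opposite directions within the same machinery. The checkpoint genes BUB3 and BUB1, the microtubule factors CKAP2 and NUSAP1 and the condensin ATPases SMC4 and SMC2 had lower means in GLUP. The mitotic kinases PLK1 and AURKB had higher means. Their log2 fold changes of 1.34 and 1.02 were 0.57 and 0.55 without Con replicate 2. The transcripts of the lower genes named here have 36.6% to 42.1% GC, and those of PLK1 and AURKB have 57.1% and 55.7%. None of the 41 members had an adjusted p under 0.05 in limma, as was the case for all tested genes (0.0% called, 1606 with an unadjusted p under 0.05). The smallest adjusted p among the members was 0.194, for BUB3 and BUB1.

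Counted without adjustment, 10 of the 41 members (24.4%) were lower in GLUP with a p under 0.05, compared with 17.2% of all tested genes, and 2 members (4.88%) were higher, compared with 4.46%. All 3 GLUP values lay below all 3 Con values for 13 members (31.7%; 22.7% of all tested genes) and above them for 3 members (7.32%; 7.55% of all tested genes). A two-sided exact permutation test of 3 against 3 libraries gave 0.1 for each of these 16 members, the smallest p the design allows. Fold changes were taken on log2(FPKM + 1), a scale that shrinks those of weakly expressed genes. On it, 5 members were more than 2-fold lower (12.2%; 6.81% of all tested genes) and 2 more than 2-fold higher (4.88%; 2.94%). The shares of lower members were above those of all tested genes, and the shares of higher members lay close to them. Because the list was chosen with earlier results of these data known, these shares are only a description.

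The median log2 fold change of the 41 members was -0.37, and that of all 7406 tested genes was -0.23. This direction depended on the scale: the mean was lower in GLUP for 30 of 41 members (73.2%; 65.5% of all tested genes), but for 17 of 41 (48.8% of all tested genes) when a trend in GC content and transcript length was removed from each library, and the member median was then 0.062. Scaled by the trimmed mean of log ratios, the median was -0.18, with 4 members lower (8.49% of all tested genes) and 5 higher (10.5%) with an unadjusted p under 0.05. Without Con replicate 3, 11 members passed an adjusted p of 0.05 in limma (26.8%), all of them lower in GLUP, compared with 16.3% of all tested genes called lower and 2.2% called higher. These were BUB1, BUB3, MAD2L1, NDC80, NUF2, NUSAP1, DLGAP5, CKAP2, SMC2, SMC4 and TOP2A. Unadjusted, 19 members were then lower (31.5% of all tested genes) and 3 higher (8.86%), whereas without Con replicate 2 the counts were 6 lower (14.8%) and 1 higher (3.93%).

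**Figure D1:**
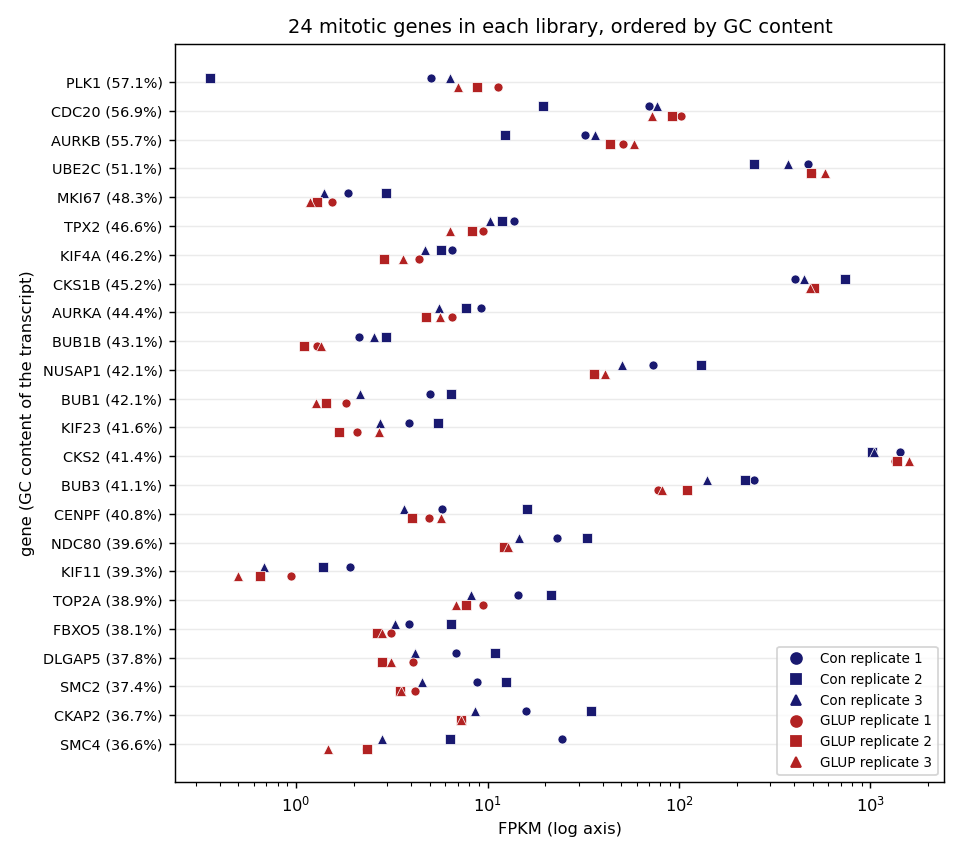
FPKM (log axis) of the 24 members given in full, in each of the 6 libraries, with the genes ordered from the lowest GC content of the transcript at the bottom to the highest at the top. For SMC4, CKAP2, SMC2 and most other genes of low GC content the 3 Con values lie to the right of the GLUP values with Con replicate 3 nearest to them, and for PLK1, CDC20 and AURKB at the top Con replicate 2 lies far to the left of the other 5 libraries.

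The spindle checkpoint members had lower means in GLUP, and the strongest difference was that of BUB3, a WD-repeat protein that carries BUB1 and BUB1B to kinetochores. BUB3 (ENSG00000154473, chromosome 10, 124913918 to 124929983, GRCh37) was at 247, 221 and 140.1 FPKM in the Con libraries and 77.9, 110.0 and 81.8 FPKM in the GLUP libraries. Even the lowest Con value, that of replicate 3, stood above the highest GLUP value. The Con mean was 203 ± 55.7 FPKM (SD, n = 3 libraries), and the GLUP mean was 89.9 ± 17.5 FPKM (SD, n = 3 libraries). The log2 fold change was -1.14 (SE 0.32, adjusted p 0.194 in limma), and after removal of the GC and length trend -0.66.

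BUB1, the kinase that BUB3 recruits, was measured at 5.03, 6.46 and 2.17 FPKM in the Con libraries and 1.83, 1.43 and 1.27 FPKM in the GLUP libraries. The groups did not overlap, although Con replicate 3 was nearer to the GLUP values than to the other Con values. Its log2 fold change was -1.06 (SE 0.33, adjusted p 0.194 in limma), and -0.59 with the trend removed. BUB1B, which encodes the inhibitor BUBR1 of the APC/C, stood at 2.12, 2.94 and 2.54 FPKM in the Con libraries and 1.28, 1.11 and 1.36 FPKM in the GLUP libraries. Here the Con values were close together, and all lay above the GLUP values. Its log2 fold change was -0.65 (SE 0.23, adjusted p 0.198 in limma), of which -0.20 was left with the trend removed. MAD2L1, the checkpoint protein that binds CDC20, overlapped: its Con values were 17.1, 16.2 and 7.89 FPKM, and its GLUP values ran from 8.42 to 8.83 FPKM, all above that of Con replicate 3. The log2 fold change of MAD2L1 was -0.54 (SE 0.34), and 0.0075 with the trend removed, so that its lower mean was not kept. TTK, the kinase at the top of the checkpoint, was below the minimum, at 1.51, 1.76 and 0.847 FPKM in the Con libraries and 0.437, 0.587 and 0.521 FPKM in the GLUP libraries. Its 3 GLUP values were all below the Con values.

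CDC20, the target of the checkpoint and the activator of the APC/C, had a higher mean in GLUP, at 69.4, 19.5 and 76.6 FPKM in the Con libraries and 103, 91.8 and 72.6 FPKM in the GLUP libraries. The GLUP and Con ranges overlapped, and Con replicate 2 was far below every other library. Its log2 fold change of 0.89 (SE 0.49, adjusted p 0.285 in limma) was 0.27 without that library.

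PLK1, the Polo-like kinase that acts at centrosomes, kinetochores and the midbody, had the largest positive difference among the members. PLK1 (ENSG00000166851, chromosome 16, 23688977 to 23701688, GRCh37) was at 5.04, 0.357 and 6.35 FPKM in the Con libraries and 11.4, 8.81 and 7.03 FPKM in the GLUP libraries. All GLUP values were above all Con values, and Con replicate 2 was far below every other library. The log2 fold change of 1.34 (SE 0.56, adjusted p 0.211 in limma) was 0.57 without Con replicate 2, and 1.07 after removal of the GC and length trend.

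The Aurora kinases, close relatives with different posts, differed in direction. AURKB, the enzyme of the chromosomal passenger complex, which corrects wrong attachments at centromeres, stood at 32.2, 12.3 and 36.4 FPKM in the Con libraries and 51.0, 43.4 and 58.4 FPKM in the GLUP libraries. Each GLUP value exceeded each Con value, and Con replicate 2 was the lowest. AURKB had a log2 fold change of 1.02 (SE 0.41, adjusted p 0.204 in limma), which was 0.55 without Con replicate 2 and 0.76 with the trend removed. AURKA, which works at centrosomes and on spindle fibres with TPX2, was at 9.28, 7.74 and 5.58 FPKM in the Con libraries and 6.51, 4.77 and 5.66 FPKM in the GLUP libraries. The ranges overlapped, and its log2 fold change of -0.34 (SE 0.29, adjusted p 0.452 in limma) was 0.073 with the trend removed, so that its direction was not stable. The ratio of AURKB to AURKA FPKM within a library, chosen for description after the values were seen, was 3.47, 1.59 and 6.53 in the Con libraries and 7.82, 9.11 and 10.3 in the GLUP libraries. The ratio was thus higher in every GLUP library than in any Con library. The transcripts of AURKB and AURKA have 55.7% and 44.4% GC. Of the other ratios computed, those of SMC2 and SMC4 to NCAPD2, BIRC5 to AURKB and PLK1 to BUB1 also did not overlap between the groups. All the rest overlapped, among them SPC24 to NDC80, SMC4 to SMC2, BUB1 to BUB3 and CKS2 to CKS1B.

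The coding sequences of the Aurora pair differ in base composition, which is shown because the differences between libraries followed that property. In the canonical transcripts of GENCODE (GRCh37), AURKA (chromosome 20, 54944445 to 54967393, minus strand) has a coding sequence of 1209 bases with 44.2% GC, and AURKB (chromosome 17, 8108051 to 8113918, minus strand) one of 1032 bases with 57.0% GC. At the third position of the codons the GC content was 38.7% in AURKA and 72.4% in AURKB. The most alike in-frame stretch of 90 bases, at coding positions 868 to 957 of AURKA and 700 to 789 of AURKB, is given 5′ to 3′ with the bases that differ in capitals.
AURKA: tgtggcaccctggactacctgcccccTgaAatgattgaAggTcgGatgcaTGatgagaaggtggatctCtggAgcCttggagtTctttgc
AURKB: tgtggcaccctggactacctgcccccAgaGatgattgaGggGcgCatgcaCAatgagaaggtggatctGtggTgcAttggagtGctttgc
Of these 90 bases 79 were identical, and of the 11 that differed 8 stood at the third position of a codon. In 5 of the 11, AURKA has A or T and AURKB has G or C, and in 2 the reverse holds. This stretch has 53.3% GC in AURKA and 56.7% in AURKB, so it differs less than the whole coding sequences do.

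The other passenger proteins had smaller differences. Survivin (BIRC5), which docks the complex on centromeres, was at 20.5, 33.8 and 20.9 FPKM in the Con libraries and 21.8, 19.3 and 18.0 FPKM in the GLUP libraries. Apart from Con replicate 2 its values were within a narrow range, and its log2 fold change was -0.30 (SE 0.31). Borealin (CDCA8) had a log2 fold change of 0.11 (SE 0.28). INCENP, the scaffold of the complex, was below the minimum, between 0 and 0.204 FPKM, and was listed at 0 in GLUP replicate 3.

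At the kinetochore, the members of the Ndc80 complex, the rod that grips microtubule ends, had log2 fold changes of either sign. NDC80 was at 23.0, 33.2 and 14.7 FPKM in the Con libraries and 12.2, 12.2 and 12.8 FPKM in the GLUP libraries. The GLUP values were nearly equal and lay below all Con values, with a log2 fold change of -0.81 (SE 0.34, adjusted p 0.211 in limma) that was -0.53 without Con replicate 2 and -0.23 with the trend removed. Its partner NUF2 had a log2 fold change of -0.62 (SE 0.35) and SPC25 one of -0.64 (SE 0.37), and in both the Con range reached into the GLUP range. The fourth subunit, SPC24, was at 9.31, 13.2 and 9.80 FPKM in the Con libraries and 14.9, 13.1 and 7.58 FPKM in the GLUP libraries. Its groups overlapped throughout, and its log2 fold change was 0.092 (SE 0.33). With the trend removed, the log2 fold changes were -0.012 for NUF2, -0.053 for SPC25 and 0.015 for SPC24. The transcripts of NDC80, NUF2 and SPC25 have 38.8% to 39.9% GC and that of SPC24 has 53.3%.

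CENPF, a large protein of the outer kinetochore, was at 5.81, 16.0 and 3.67 FPKM in the Con libraries and 4.95, 4.04 and 5.74 FPKM in the GLUP libraries. Con replicate 2 was far above the others, and the log2 fold change of -0.47 (SE 0.44, adjusted p 0.50 in limma) was 0.058 without it. CENPA, the histone H3 variant that marks centromeres, and CENPE, a kinetochore motor, were below the minimum. CENPA was at 2.55, 1.16 and 0.419 FPKM in the Con libraries and 0.550, 0.480 and 0.589 FPKM in the GLUP libraries, with Con replicate 3 below all GLUP values.

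Among the spindle motors and microtubule factors, 5 of 9 tested members had all GLUP values below all Con values (22.7% of all tested genes). No member had them above (7.55% of all tested genes). CKAP2, a microtubule nucleation factor, was at 15.8, 34.6 and 8.61 FPKM in the Con libraries and 7.37, 7.28 and 7.29 FPKM in the GLUP libraries. The GLUP libraries were almost identical, while the Con libraries spanned a wide range above them. Its log2 fold change was -1.11 (SE 0.44, adjusted p 0.202 in limma), which was -0.61 without Con replicate 2 and -0.51 with the trend removed. NUSAP1 (ENSG00000137804, chromosome 15, 41612992 to 41673248, GRCh37), which bundles microtubules around chromosomes, was the most abundant of the group, at 73.4, 129.7 and 50.4 FPKM in the Con libraries and 36.3, 36.2 and 41.2 FPKM in the GLUP libraries. Con replicate 3 was again the nearest to GLUP, and the log2 fold change was -1.03 (SE 0.37, adjusted p 0.198 in limma), with -0.67 without Con replicate 2 and -0.54 with the trend removed. NUSAP1 overlaps OIP5 and OIP5-AS1, KIF4A overlaps PDZD11, KIF20A overlaps CDC23 and BRD8, CENPA overlaps SLC35F6, and strand-specific counting is not stated, so that these values are uncertain.

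DLGAP5, an Aurora A substrate that stabilizes spindle fibres, was at 6.85, 11.0 and 4.19 FPKM in the Con libraries and 4.08, 2.80 and 3.15 FPKM in the GLUP libraries, with a log2 fold change of -0.87 (SE 0.34, adjusted p 0.202 in limma). TPX2, the activator of Aurora A, was at 13.8, 11.9 and 10.4 FPKM in the Con libraries and 9.48, 8.29 and 6.36 FPKM in the GLUP libraries. KIF4A, a chromosome-bound kinesin, was at 6.51, 5.72 and 4.69 FPKM in the Con libraries and 4.40, 2.87 and 3.63 FPKM in the GLUP libraries. For all 3 genes the GLUP values were below the Con values, and for DLGAP5 the gap was narrow. DLGAP5 was at -0.57 without Con replicate 2 and -0.27 with the trend removed. TPX2 and KIF4A had log2 fold changes of -0.53 (SE 0.29, adjusted p 0.277 in limma) and -0.52 (SE 0.27, adjusted p 0.268), and -0.20 and -0.18 with the trend removed.

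KIF11, the motor that pushes spindle poles apart, overlapped, at 1.92, 1.39 and 0.682 FPKM in the Con libraries and 0.940, 0.652 and 0.499 FPKM in the GLUP libraries. Its log2 fold change of -0.43 (SE 0.25, adjusted p 0.306 in limma) was 0.10 with the trend removed. HMMR, KIF2C and TACC3 also had overlapping groups, with log2 fold changes of -0.30 (SE 0.34), 0.053 (SE 0.24) and 0.39 (SE 0.27). TACC3, which links microtubules in kinetochore fibres and has the highest transcript GC content of the group (57.8%), was the highest of the 3.

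**Figure D2:**
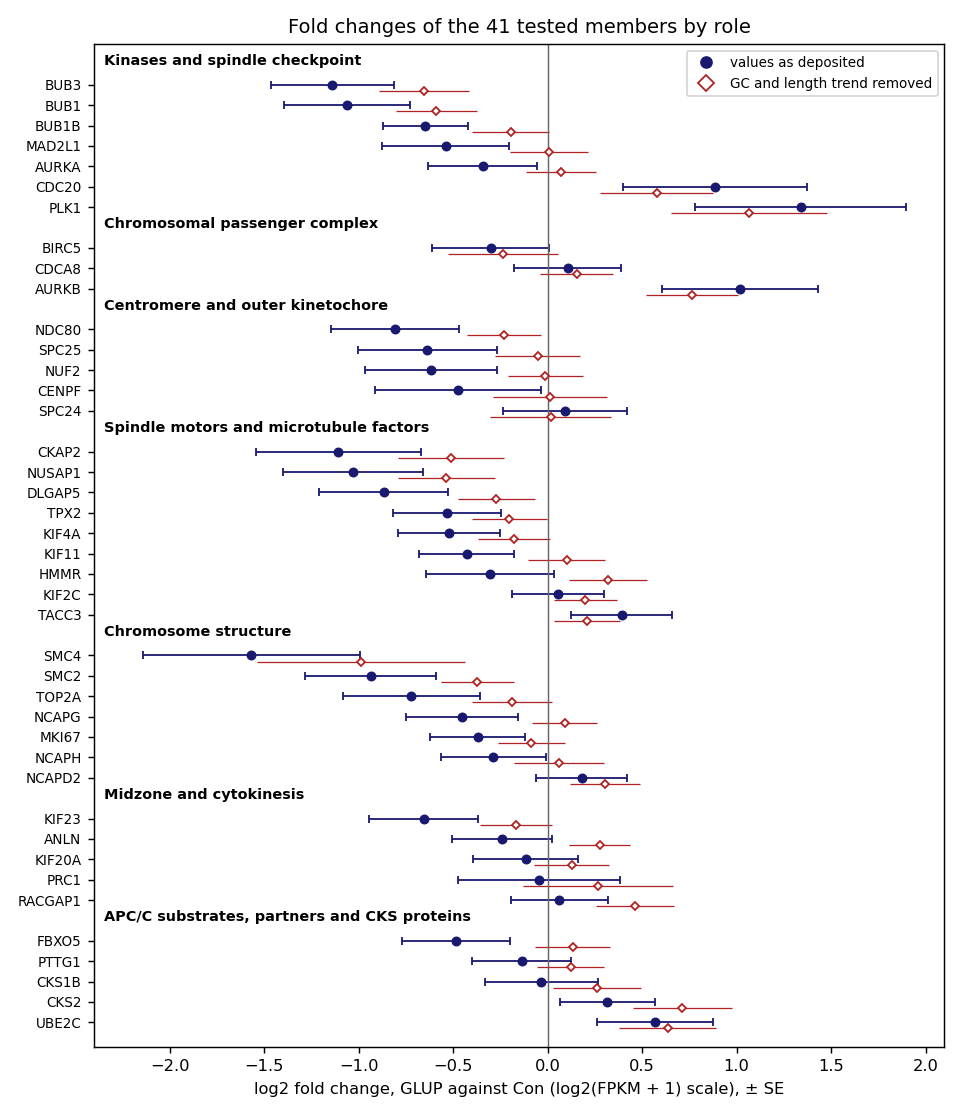
Log2 fold change (GLUP against Con, log2(FPKM + 1) scale) of the 41 tested members, grouped by role, with bars of ± SE from limma; filled circles are the values as deposited and open diamonds the values with the GC and length trend removed. The diamonds of BUB3, BUB1 and SMC4 stay to the left of 0 and those of PLK1, AURKB and UBE2C to the right, while those of AURKA, CENPF and KIF11 lie across 0 from their circles.

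Condensin, the ring that compacts chromosomes, had its largest differences in its ATPases. SMC4 (ENSG00000113810, chromosome 3, 160117062 to 160152742, GRCh37) was at 24.5, 6.37 and 2.80 FPKM in the Con libraries and 2.31, 2.36 and 1.47 FPKM in the GLUP libraries. Its high Con mean rested on replicate 1, and the lowest Con value was above the highest GLUP value. The log2 fold change of -1.57 (SE 0.57, adjusted p 0.198 in limma) was the largest negative value among the members, and it was -0.81 without Con replicate 1 and -0.99 with the trend removed. Its partner SMC2 was at 8.83, 12.5 and 4.56 FPKM in the Con libraries and 4.17, 3.48 and 3.55 FPKM in the GLUP libraries. The groups did not overlap, and the log2 fold change was -0.94 (SE 0.35, adjusted p 0.198 in limma), or -0.37 with the trend removed.

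The regulatory subunit NCAPD2 was at 2.38, 1.83 and 2.69 FPKM in the Con libraries and 3.0, 2.75 and 2.42 FPKM in the GLUP libraries, with overlapping groups and a log2 fold change of 0.18 (SE 0.24). NCAPD2 overlaps MRPL51, which had a mean of 1188 FPKM, on the other strand. The ratio of SMC2 to NCAPD2, again chosen after the values were seen, was 3.71, 6.82 and 1.70 in the Con libraries and 1.39, 1.26 and 1.47 in the GLUP libraries. The transcripts of SMC2 and NCAPD2 have 37.4% and 51.6% GC. NCAPG and NCAPH had log2 fold changes of -0.45 (SE 0.30) and -0.29 (SE 0.28), and their groups overlapped.

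TOP2A, the topoisomerase that untangles sister chromatids, was at 14.4, 21.6 and 8.23 FPKM in the Con libraries and 9.47, 7.72 and 6.83 FPKM in the GLUP libraries. Con replicate 3 lay among the GLUP values, and the log2 fold change was -0.72 (SE 0.36, adjusted p 0.258 in limma), with -0.41 without Con replicate 2 and -0.19 with the trend removed. MKI67, which encodes the proliferation marker Ki-67 that coats mitotic chromosomes, was at 1.88, 2.96 and 1.40 FPKM in the Con libraries and 1.54, 1.29 and 1.18 FPKM in the GLUP libraries. Its groups overlapped in the same way, its log2 fold change was -0.37 (SE 0.25, adjusted p 0.366 in limma), and with the trend removed it was -0.086.

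Of the cytokinesis genes, KIF23, a motor of the centralspindlin complex, was the sole member without overlap, at 3.91, 5.54 and 2.75 FPKM in the Con libraries and 2.09, 1.68 and 2.72 FPKM in the GLUP libraries. The gap between Con replicate 3 and GLUP replicate 3 was minimal, and its log2 fold change was -0.65 (SE 0.29, adjusted p 0.226 in limma), or -0.17 with the trend removed. Its partner in centralspindlin, RACGAP1, had a log2 fold change of 0.061 (SE 0.26), KIF20A one of -0.12 (SE 0.28) and ANLN, a scaffold of the contractile ring, one of -0.24 (SE 0.27). PRC1, the bundler of midzone microtubules, was at 12.4, 19.5 and 9.60 FPKM in the Con libraries and 10.6, 7.97 and 24.4 FPKM in the GLUP libraries. GLUP replicate 3 was the highest and GLUP replicate 2 the lowest of the 6 libraries, and the log2 fold change was -0.046 (SE 0.43). ECT2, which activates RhoA at the cleavage site, was below the minimum, between 0.457 and 1.34 FPKM.

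The most abundant members belonged to the machinery around the APC/C, and none of them was lower in every GLUP library. CKS2, CKS1B, PTTG1 and UBE2C together made up 79.6% to 88.7% of the summed FPKM of the 48 genes in each library, and have canonical transcripts of only 616 to 779 bases. CKS2, a small adaptor of cyclin-dependent kinases, was at 1428, 1013 and 1049 FPKM in the Con libraries and 1338, 1369 and 1599 FPKM in the GLUP libraries. The groups overlapped through Con replicate 1, and the log2 fold change was 0.32 (SE 0.25, adjusted p 0.432 in limma), or 0.71 with the trend removed. Its paralog CKS1B was at 404, 735 and 448 FPKM in the Con libraries and 504, 508 and 485 FPKM in the GLUP libraries. Apart from Con replicate 2 its values were close together. The sign of its log2 fold change of -0.034 (SE 0.30, adjusted p 0.946 in limma) was not stable, since it was 0.26 with the trend removed, 0.27 with scaling by the trimmed mean of log ratios and 0.23 without Con replicate 2. The pseudogenes CKS1BP3 and CKS1BP2 averaged 15.6 and 8.63 FPKM, so reads of CKS1B may be split among near-identical copies.

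UBE2C, the E2 enzyme that starts ubiquitin chains on APC/C substrates, was at 474, 245 and 369 FPKM in the Con libraries and 495, 487 and 580.4 FPKM in the GLUP libraries. All GLUP values were above all Con values, narrowly for replicate 1 of Con. The log2 fold change of 0.57 (SE 0.31, adjusted p 0.284 in limma) was 0.31 without Con replicate 2 and 0.63 with the trend removed. PTTG1, the securin that restrains separase, was at 695, 843 and 609 FPKM in the Con libraries and 593, 613 and 739 FPKM in the GLUP libraries, and its log2 fold change was -0.14 (SE 0.26). FBXO5 (EMI1), an inhibitor of the APC/C in interphase, was at 3.91, 6.45 and 3.29 FPKM in the Con libraries and 3.12, 2.64 and 2.81 FPKM in the GLUP libraries. Its GLUP values were just below the Con values, and the log2 fold change of -0.49 (SE 0.29, adjusted p 0.307 in limma) was -0.25 without Con replicate 2 and 0.13 with the trend removed.

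UBE2S, which lengthens the ubiquitin chains, and separase were below the minimum. UBE2S was at 0.808, 0.602 and 0.525 FPKM in the Con libraries and 0.219, 0.197 and 0.380 FPKM in the GLUP libraries, with all GLUP values lower. ESPL1 was at 0.436, 0.176 and 0.319 FPKM in the Con libraries and 0.657, 0.881 and 0.475 FPKM in the GLUP libraries, with all GLUP values higher. UBE2S overlaps RPL28 on the other strand, which makes its low values uncertain.

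The 17 tested members outside the 24 given in full ranged in log2 fold change from -0.64 to 0.39, and in limma their adjusted p lay between 0.298 and 0.949. For 12 of the 41 tested members the log2 fold change was smaller than its SE. The replicate spread was wider in Con, with a median SD over genes of 0.43 on the log2 scale compared with 0.19 in GLUP (n = 3 each), and the Con SD was the larger for 33 of 41 members. With the 4 most abundant genes left out, the summed FPKM of the members was 703, 729 and 483 in the Con libraries and 464, 454 and 435 in the GLUP libraries. On this summed level, too, Con replicate 3 lay close to GLUP.

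The direction of a member followed the GC content of its transcript. Across the 41 tested members the Spearman correlation between GC content and log2 fold change was 0.74 (Pearson 0.80), and across 7388 tested genes with a known sequence it was 0.55. These are correlations across genes that share the same libraries and are given as a description. Of the 23 members with less than 45% GC, 21 had a lower mean in GLUP, with a median log2 fold change of -0.64, while 88.3% of all tested genes in that range were lower (median -0.49). The exceptions were CKS2 and RACGAP1. All 8 members from 45% to 50% GC were lower, with a median of -0.21 (73.9% of all tested genes, median -0.28). Of the 10 members with 50% GC or more, 9 were higher, with a median of 0.29, compared with a median of 0.15 for all tested genes there, of which 38.3% were lower. The exception was BIRC5.

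**Figure D3:**
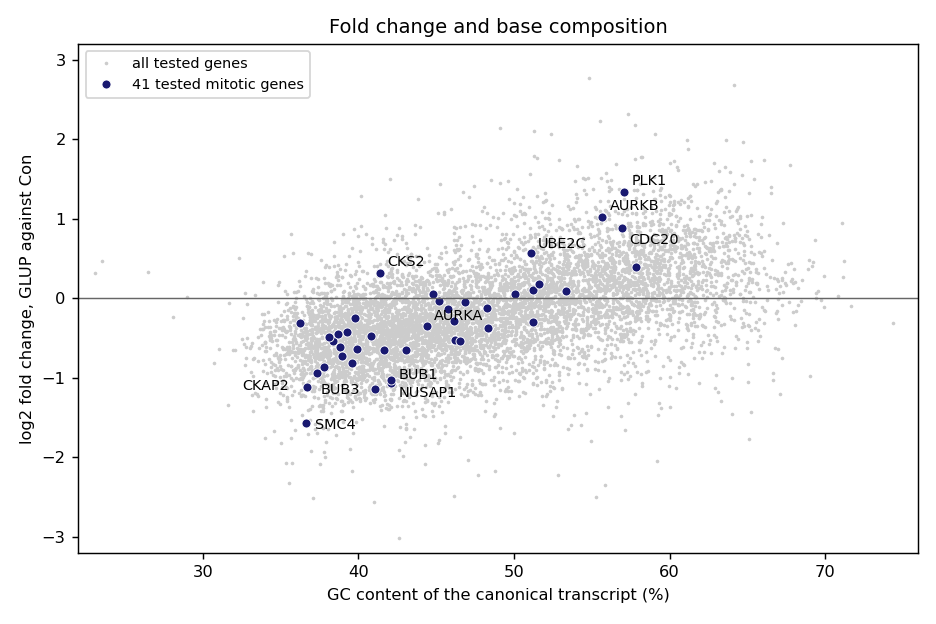
Log2 fold change (GLUP against Con) against the GC content of the canonical transcript in percent; grey points are all tested genes with a known sequence and blue points the 41 tested members. The members lie inside the grey cloud, with most of those under 50% GC below 0 and most of those above it over 0; SMC4 at 36.6% GC is the lowest and PLK1 at 57.1% GC the highest point among them.

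The libraries themselves differed along the same axis. The median deviation of the 23 members of low GC content from their gene means was 0.42, 0.73 and -0.23 in the Con libraries and -0.28, -0.42 and -0.26 in the GLUP libraries (log2 scale). For the 10 members of high GC content it was -0.019, -0.38 and -0.065 in Con and 0.36, 0.18 and -0.024 in GLUP. Con replicate 3 thus resembled the GLUP libraries in the members of low GC content and lay near 0 in those of high GC content. Removing the trend took the Spearman correlation of GC content with log2 fold change to 0.024 over all tested genes but to 0.46 over the members, so the members' values in that fit are not free of it. Their median there was -0.053 under 45% GC, 0.092 from 45% to 50% and 0.25 at 50% or more. In that fit 2 members were lower with an unadjusted p under 0.05, BUB1 and BUB3 (8.97% of all tested genes were), and 4 were higher, AURKB, CKS2, PLK1 and UBE2C (9.58%). None had an adjusted p under 0.05 in limma.

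**Figure D4:**
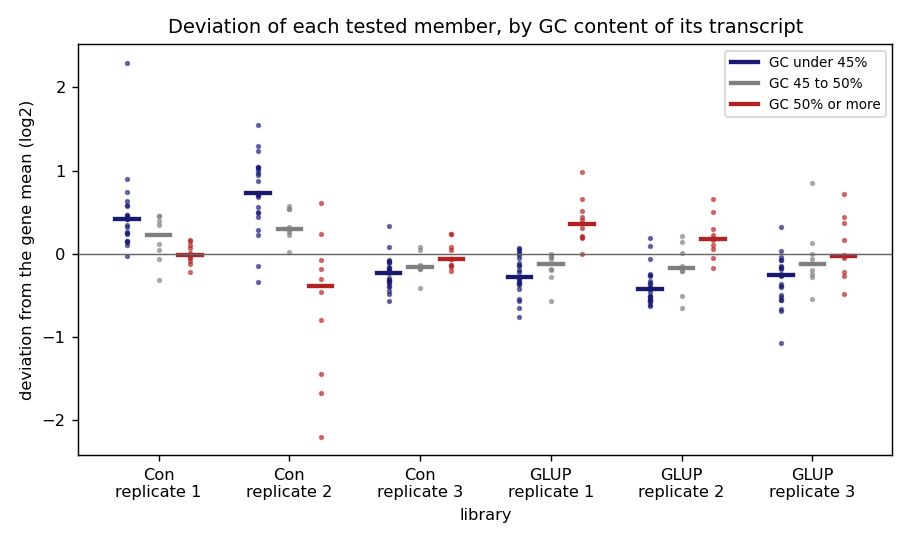
Deviation of each of the 41 tested members from its mean over the 6 libraries (log2(FPKM + 1) scale), by library, with the members split by GC content of the transcript; points are genes and bars are medians. Con replicate 2 has the widest split, with medians of 0.73 for low and -0.38 for high GC content, and in Con replicate 3 and the GLUP libraries the order of the groups is the reverse.

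The members share promoter elements that their selection did not use. Promoters of genes expressed in mitosis often hold a cell cycle genes homology region (CHR), to which the DREAM and MuvB complexes bind, together with CCAAT boxes for NF-Y. Promoter sequences of RefSeq (GRCh38.p14, 250 bases before to 50 after the start) were found for 41 of the 48 members, all but AURKA, BIRC5, BUB3, TTK, TPX2, UBE2C and RACGAP1. The letters TTTGAA or TTCGAA (CHR), on either strand, stood in 30 of these 41 promoters (73.2%) and in 16.6% of all 27305 promoters of the table. CCAAT, on either strand, stood in 29 (70.7%) and in 35.7% of all. Both elements were present in 23 (56.1%) and in 6.58% of all. CATTCC, the core of the M-CAT element that TEAD proteins bind, on either strand, stood in 5 (12.2%), in CENPE, CENPF, HMMR, KIF2C and NUF2, and in 14.0% of all. These are counts of letters and not of bound sites.

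In the other mitotic genes described further on, the shares of promoters were 36.4% for CHR, 51.1% for CCAAT and 20.5% for both. Of the 11 promoters of tested members below Con in every GLUP library, 9 held a CHR, 5 held CCAAT (45.5%), 5 held both, and none held CATTCC. The promoters of BUB1 and NUSAP1, lower in every GLUP library, and of AURKB and PLK1, higher in every GLUP library, are given 5′ to 3′ in the direction of transcription, with CHR and CCAAT letters in capitals.
BUB1 (chr2:110678014-110678313, minus strand, GRCh38.p14): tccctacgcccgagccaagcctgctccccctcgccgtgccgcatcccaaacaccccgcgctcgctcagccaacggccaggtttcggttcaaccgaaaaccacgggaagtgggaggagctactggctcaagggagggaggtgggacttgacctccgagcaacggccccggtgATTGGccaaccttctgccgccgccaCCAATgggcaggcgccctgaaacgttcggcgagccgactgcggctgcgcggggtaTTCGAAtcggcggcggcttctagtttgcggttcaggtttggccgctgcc
NUSAP1 (chr15:41332631-41332930, plus strand, GRCh38.p14): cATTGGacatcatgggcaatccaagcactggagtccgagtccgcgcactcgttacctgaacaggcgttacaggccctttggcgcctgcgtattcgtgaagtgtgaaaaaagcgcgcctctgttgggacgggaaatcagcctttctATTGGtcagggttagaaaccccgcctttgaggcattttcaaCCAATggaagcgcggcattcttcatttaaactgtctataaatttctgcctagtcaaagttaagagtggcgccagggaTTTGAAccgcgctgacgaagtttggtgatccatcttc
AURKB (chr17:8210176-8210475, minus strand, GRCh38.p14): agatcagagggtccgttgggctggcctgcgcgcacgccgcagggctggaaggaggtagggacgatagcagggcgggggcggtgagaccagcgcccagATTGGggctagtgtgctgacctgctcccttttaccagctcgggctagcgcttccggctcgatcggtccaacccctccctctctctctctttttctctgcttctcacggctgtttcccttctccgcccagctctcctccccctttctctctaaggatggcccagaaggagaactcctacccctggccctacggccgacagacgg
PLK1 (chr16:23678639-23678938, plus strand, GRCh38.p14): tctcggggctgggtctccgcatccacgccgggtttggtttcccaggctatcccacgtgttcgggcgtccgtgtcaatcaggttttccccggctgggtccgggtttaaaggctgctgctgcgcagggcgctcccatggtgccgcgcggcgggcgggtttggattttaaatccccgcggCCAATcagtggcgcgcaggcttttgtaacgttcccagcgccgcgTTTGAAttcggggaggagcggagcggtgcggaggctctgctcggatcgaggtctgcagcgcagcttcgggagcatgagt
BUB1 holds 1 CHR and 2 CCAAT boxes, NUSAP1 holds 1 and 3, and PLK1 holds 1 and 1, while the AURKB window holds 1 CCAAT box and no CHR. PLK1, with a higher mean in GLUP, thus carried both kinds of letters, as did BUB1 and NUSAP1 with lower means. AURKB, also higher, carried CCAAT alone. The GC content of these promoters was 66.3% in BUB1, 50.3% in NUSAP1, 63.7% in AURKB and 64.7% in PLK1. It was not ordered as that of their transcripts.

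A further list of 98 mitotic genes that are not members, drawn up by function with earlier results of these data known, was read from the same fit. Of these, 81 were tested, none had an adjusted p under 0.05 in limma, and 21 were lower (17.2% of all tested genes were) and 1 was higher (4.46%) with an unadjusted p under 0.05. Once the trend in GC and length was taken out, 8 were lower (8.97% of all tested genes) and 1 was higher (9.58%). The median log2 fold change was -0.42, and -0.11 without the trend. The mean was lower in GLUP for 64 of the 81, and for 65.5% of all tested genes. By role, it was lower for 11 of 12 tested subunits of the APC/C, 22 of 26 other kinetochore genes, all 9 tested cohesin genes, 9 of 11 entry kinases and phosphatases, 8 of 13 other spindle genes, 2 of 3 condensin II genes and the 1 tested cytokinesis gene. Without the trend these counts were 10, 11, 5, 8, 7, 1 and 1 in the same order.

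Some of the genes with the smallest p of each role are given as mean ± SD (n = 3 in each group). ARPP19, which inhibits the phosphatase PP2A at mitotic entry once phosphorylated, had a Con mean of 14.8 ± 11.0 FPKM against 3.14 ± 0.796 FPKM in GLUP, and its log2 fold change was -1.65 (SE 0.52). The kinase WEE1, which restrains CDK1, had a Con mean of 2.72 ± 1.57 FPKM against 0.817 ± 0.257 FPKM in GLUP, and its log2 fold change was -0.95 (SE 0.32). Both had lower values in every GLUP library than in any Con library. The same held for shugoshin (SGO1), the protector of centromeric cohesin, with a Con mean of 31.0 ± 15.6 FPKM against 11.3 ± 2.93 FPKM in GLUP and a log2 fold change of -1.29 (SE 0.40). It also held for HAUS2, a subunit of the augmin complex, with a Con mean of 17.1 ± 5.49 FPKM against 5.75 ± 1.04 FPKM in GLUP and a log2 fold change of -1.38 (SE 0.32), and for the inner kinetochore gene CENPN, with a Con mean of 128 ± 75.2 FPKM against 45.4 ± 2.90 FPKM in GLUP and a log2 fold change of -1.32 (SE 0.40). With the trend removed, the log2 fold changes were -1.08 for ARPP19, -0.63 for WEE1, -0.73 for SGO1, -0.91 for HAUS2 and -0.88 for CENPN, and without Con replicate 2 they were -1.10, -0.65, -0.93, -1.31 and -0.88. The adjusted p of these 5 genes in limma ranged from 0.194 to 0.198. On the values as deposited, the motor KIFC1 was the gene higher with an unadjusted p under 0.05. With the trend removed, it was instead the kinetochore gene PMF1. The log2 fold change of PMF1 was 1.16 (SE 0.54, adjusted p 0.240 in limma), the largest of the list, and its GLUP values all lay above its Con values. It was 0.92 with the trend removed and 0.43 without Con replicate 2. KIFC1 had a Con mean of 1.86 ± 0.906 FPKM against 4.05 ± 1.49 FPKM in GLUP, and its groups overlapped. Its log2 fold change was 0.82 (SE 0.33, adjusted p 0.203 in limma), or 0.56 with the trend removed.

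Of the 6 tested genes of the DREAM, MuvB and FOXM1 group, which regulate mitotic gene transcription, 4 had a higher and 2 a lower mean in GLUP, none with an unadjusted p under 0.05. The median GC content of the group was 56.9%, and of all tested genes with 50% GC or more 38.3% had a lower mean. With the trend in GC and length removed, all 6 had a higher mean, with a median log2 fold change of 0.30. In that fit 48.8% of all tested genes had a lower mean. MYBL2 had a Con mean of 4.45 ± 2.76 FPKM against 7.24 ± 1.77 FPKM in GLUP, and its log2 fold change was 0.72 (SE 0.42), or 0.26 without Con replicate 2. LIN37 had a Con mean of 7.68 ± 4.70 FPKM against 13.2 ± 6.75 FPKM in GLUP, its groups overlapped as those of MYBL2 did, and its log2 fold change was 0.82 (SE 0.51), or 0.23 without Con replicate 2. With the trend removed, the log2 fold changes of MYBL2 and LIN37 were 0.47 and 0.54. Their transcripts have 60.0% and 59.8% GC.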

How the data were processed

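Per the labels and the methods of the study, RNA of HGC-27 cells was sequenced, and whether strand was kept is not given in the sources used here. The FPKM values were made by the authors, and their deposited table holds 1 value per gene and library. The submitters' processing notes name HISAT2, Cufflinks and RSEM, without versions, and the build GRCh38.p10, whereas the row identifiers carry the suffix of GENCODE lifted to GRCh37, so gene positions are given in GRCh37 (GENCODE release 44). Duplicate identifiers of the pseudoautosomal regions, all at 0, were summed. No read counts were used, so the depth and its counting error are unknown.

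Groups were taken from the labels. Genes averaging 1 FPKM or more entered limma 3.58.1 (R 4.3.3; lmFit, eBayes with trend, two-sided) on log2(FPKM + 1), with Benjamini-Hochberg adjustment over all 7406 tested genes; members below this minimum were read from a fit without it. Alternatives were another pseudocount (0.1), no minimum or 5 FPKM, other scalings, a loess trend (span 0.5) in GC content and length of the canonical transcript removed from each library, a replicate block, other variance settings and leaving out each library. The removal of the trend together with leaving out Con replicate 2 or 3 was added after seeing the data. By rule, the genes given in full were the tested members with an unadjusted p under 0.05 or without overlap of the groups, and always AURKA, AURKB, PLK1, CDC20, BUB1B, TOP2A, MKI67, UBE2C, CKS1B, CKS2, CENPF and KIF11. Of the other mitotic genes at most 2 per role, with the smallest p, were eligible. PMF1 was added outside this rule, as the gene higher with the trend removed. Further members described as partners of these genes, ratios and motifs were chosen after values were seen. The members and lists were chosen with earlier results of these data known. The script was tested on simulated data.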

Additional observations from a re-analysis of the deposited data

How the results depend on the processing

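For the 24 members given in full, 354 of 377 log2 fold changes under the alternatives kept their direction and their side of an adjusted p of 0.05 in limma, 9 passed the threshold, all without Con replicate 3, and 14 had the other sign. Changing the minimum, the variance settings or the block leaves a gene's log2 fold change unchanged, so its direction could not differ there. As no member was called in the main fit, keeping the side of the threshold meant staying uncalled. The 354 therefore does not measure robustness. CKS1B (-0.034) was 0.27 with scaling by the trimmed mean of log ratios, 0.23 with median centring, and from -0.20 to 0.23 when single libraries were left out, and CENPF (-0.47) from -0.87 to 0.058, where both were positive only without Con replicate 2. Removal of the GC and length trend, with or without the replicate block, gave AURKA 0.073, CENPF 0.012, CKS1B 0.26, FBXO5 0.13 and KIF11 0.10. The number of all tested genes with an adjusted p under 0.05 (0) was 1 with a minimum of 5 FPKM, with the trend removed, with the replicate block, with both, and with eBayes without trend, and ranged from 0 to 1367 over single libraries left out (1367 without Con replicate 3, 3 without Con replicate 2). The number of members called (0) ranged from 0 to 11, with 11 without Con replicate 3. The number of members lower with an unadjusted p under 0.05 (10) was 4 with the trimmed mean, 3 with centring, 2 with the trend removed and 3 with the block added, and ranged from 3 to 19 over single libraries left out, with 3 without GLUP replicate 2, 19 without Con replicate 3, 4 without Con replicate 1, 6 without Con replicate 2, 5 without GLUP replicate 1 and 4 without GLUP replicate 3. The number higher (2) was 1 with a pseudocount of 0.1, 0 without a minimum, 1 with 5 FPKM, 5 with the trimmed mean or centring, and 4 with the trend removed, with or without the block. It ranged from 0 (without any 1 GLUP library) to 3 (without Con replicate 1 or 3), with 1 without Con replicate 2. With the trend removed and Con replicate 2 left out, 2 members were lower and 4 higher, and with Con replicate 3 left out 6 and 6. Over all tested genes, the number with an unadjusted p under 0.05 in either direction moved as well. Of 7406 genes it was 1606 in the main fit, 1407 with the trimmed mean and 1408 with centring. Of 7388 it was 1371 with the trend removed, 1315 with Con replicate 2 also left out and 2046 with Con replicate 3. Over single libraries left out it ran from 785 (GLUP replicate 2) to 2986 (Con replicate 3), with 1390 for Con replicate 2. The member median (-0.37) was -0.18 with the trimmed mean, -0.11 with centring, 0.062 with the trend removed, with or without the block, 0.11 and 0.018 when Con replicate 2 or 3 was also left out, and -0.62 to -0.22 over single libraries left out. The median of the other mitotic genes (-0.42) was -0.16 with centring and -0.11 with the trend removed, with or without the block. The causes were not tested.

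Whether replicate numbers shared between groups pair the samples is not known. Deviations of same-numbered libraries correlated at 0.13, -0.010 and -0.17. These values cannot decide it, since differently numbered libraries were not compared. With the number as a block, 8 members were lower and 2 higher with an unadjusted p under 0.05, and no member was called. Of all 7406 tested genes, 1513 then had an unadjusted p under 0.05 in either direction. The data are limited by 3 libraries a group, a wide Con spread, an unknown depth, and a base composition trend that partly follows the groups. Over all tested genes, the Spearman correlation of deviation with GC content was -0.34, -0.60 and 0.45 in Con and 0.43, 0.54 and 0.34 in GLUP. Con replicate 3 thus had the sign of the GLUP libraries.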
